A study of Homo sapiens with 29 samples.

Results

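AXL Y726F is a PC9 line whose AXL carries phenylalanine in place of the tyrosine its name numbers. It was set against 6 other transduced lines, WT, Y634F, Y643F, Y698F, Y750F and Y821F, which carry wild-type AXL or the same kind of change at another tyrosine. The 3 Y726F libraries and the 18 libraries of the other lines were taken from the labels among 29 in all, with 1 library for each line and treatment. PC9 is an EGFR-mutant lung adenocarcinoma cell line. In all 7 lines the cells' own AXL had been disrupted by CRISPR and an AXL insert returned by lentivirus, with puromycin resistance and GFP sorting. Each line is thus a sorted population, not a clone, and still holds AXL KO cells. The paper estimates that only a minority of the transduced cells express AXL, so each bulk library mixes them with a majority that lacks it. Cells were left untreated (UT), given the EGFR inhibitor erlotinib (E), or given erlotinib with AF154 (EA), an antibody that activates AXL, for 24 h. PolyA RNA was sequenced, and kinase-dead AXL (KD) in the same KO cells is quoted where a value needs it. The comparison asks which genes, at rest or in their response, set Y726F apart from the other lines.

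AXL belongs to the TAM family of receptor tyrosine kinases, with TYRO3 and MERTK, and is activated by its ligand GAS6. Tyrosines in its cytoplasmic part are phosphorylated on activation, some within the kinase domain and some in the tail, where adaptor proteins dock. In EGFR-mutant lung cancer AXL is known as a receptor through which cells survive EGFR inhibition. The tyrosine changed in Y726F lies in the kinase domain. The reference codons of the 6 substituted tyrosines are shown to place the Y726F change beside those of the lines it is compared with. Each is read from transcript AXL-201 (894 codons, plus strand, GRCh38, GENCODE release 29) with 12 bases on either side, and the capitals mark the tyrosine codon.
Y634F: agcttcctcctcTATtcccggctcggg
Y643F: gaccagccagtgTACctgcccactcag
Y698F: tccaagaagatcTACaatggggactac
Y726F: gctgaccgtgtcTACaccagcaagagc
Y750F: ggccaaaccccaTATccgggcgtggag
Y821F: gacgaaatcctcTATgtcaacatggat
All 6 positions held a tyrosine codon in the reference. The codon changed in Y726F lies at chr19:41256591-41256593, in the coding part of exon 18 of 20, the same exon as that of Y698F at chr19:41256507-41256509. The inserts themselves were not sequenced at these positions in the files used here.

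Values are TPM (a transcript's share of all transcripts, set to a fixed total in every library), summed over the transcripts of a gene. TPM keeps no read depth, so no counting interval can be given. Of 35580 genes, the 9241 that averaged 10 TPM or more across all 29 libraries entered the tests, on log2(TPM + 1), a scale that understates changes of low genes. Each line entered as 1 value, and Y726F was compared with the spread of the other 6 lines in limma, with Benjamini-Hochberg adjustment over all 9241 genes. The spread is that between differently mutated lines, since no line and treatment has a second library. Lung epithelial markers summed to between 8733 and 10902 TPM in the Y726F libraries and 8166 to 11219 TPM in the others. Keratins made up most of that sum, with KRT7 alone at 3407 to 6251 TPM in Y726F. Markers more particular to lung were low in Y726F, with highest values of 0.04 TPM for NKX2-1, 0.42 TPM for SFTPB and 2.29 TPM for NAPSA. In the other lines their highest values were 0.35, 1.09 and 4.09 TPM. Fibroblast, leukocyte and endothelial marker sums in Y726F (29.2 to 73.7, 64.6 to 80.4 and 7.11 to 12.2 TPM) lay within or next to those of the other lines (24.6 to 67.3, 55.7 to 94.2 and 4.84 to 16.5 TPM), with 2 of the 11 leukocyte markers at 0 throughout, and their part in the results was not tested. In single libraries of the other lines the mitochondrial share of TPM ran from 11.4% (Y634F in UT) to 17.4% (Y821F in EA). Mitochondrial genes took 13.4 to 13.5% of TPM in Y726F and, as line means, 12.3 to 14.4% in the other lines (exact permutation test, two-sided, p = 1, where 0.143 is the smallest p that 1 line against 6 allows).

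AXL itself was among the highest in Y726F. AXL was at 428 TPM in UT, 807 TPM in E and 762 TPM in EA. The other lines had 217, 304 and 423 TPM (lowest, median, highest) in UT, 408, 542 and 852 TPM in E, and 338, 487 and 849 TPM in EA. Y726F was just above the highest line when untreated and second to Y750F in both drug conditions, and was therefore not outside the other lines in every treatment. The line difference was 0.53 (SE 0.28) on the log2 scale, with adjusted p = 0.999 in limma and p = 0.429 in the exact permutation test (two-sided). Because these are bulk libraries of mixed populations, more cells with the insert and more AXL RNA per cell cannot be told apart. Transcripts AXL-203 and AXL-205, which were at 12.2 and 0.182 TPM in untreated AXL KO cells, were at 136 and 109 TPM in untreated Y726F. The other lines also had more than the KO cells, with 64.6 to 151.5 and 25.2 to 90.8 TPM in UT. AXL-205 is annotated with a retained intron and ends at position 41243864, before the substituted codons. AXL-201 was at 53.5 TPM in untreated Y726F, 47.6 to 60.5 TPM in the other lines and 41.8 TPM in KO cells. How reads were divided among the transcripts was not tested.

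**Figure D1:**
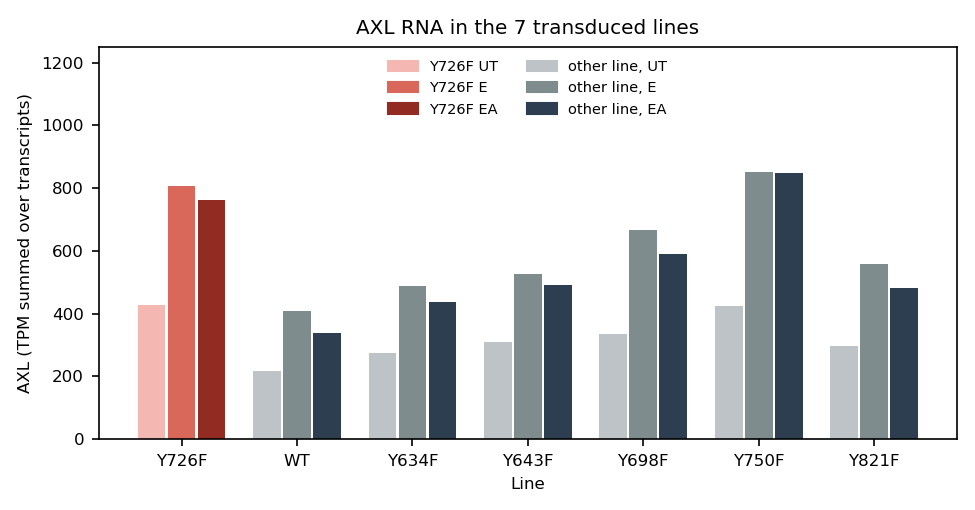
AXL in TPM (bars, vertical axis from 0) for each of the 7 lines and 3 treatments, 1 library a bar, with Y726F in red. Y726F rises from 428 TPM in UT to 807 in E and 762 in EA, next to Y750F, whose E and EA bars are the tallest.

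The rest of the receptor axis was close to the other lines. GAS6, the ligand, was at 35.3, 66.9 and 60.6 TPM in UT, E and EA against ranges of 30.6 to 41.0, 58.2 to 76.1 and 59.0 to 69.3 TPM. TYRO3 was at 18.7, 12.7 and 13.9 TPM, inside the range in UT and E and just above 13.8 TPM in EA. MERTK was at 1.87 to 2.26 TPM and PROS1, a second TAM ligand, at 1.35 to 4.11 TPM, both too low to be tested. EGFR was at 195, 122 and 127 TPM, where the other lines had 171 to 204, 127 to 144 and 133 to 153 TPM, so that it lay below all of them in the 2 drug conditions but not in UT. Its line difference was -0.06 (SE 0.07, adjusted p = 0.999). The focal adhesion kinase PTK2 (line difference -0.07, SE 0.09), the adhesion scaffold NEDD9 (-0.09, SE 0.09), the Hippo effectors YAP1 (-0.06, SE 0.08) and WWTR1 (-0.09, SE 0.09) and their targets CCN1 (0.01, SE 0.08) and CCN2 (-0.08, SE 0.12) differed by no more than about their errors.

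Y726F was a line with few genes of its own. Averaged over the 3 treatments, 1 gene of 9241 (0.0108%) passed the threshold, and 215 (2.33%) had an unadjusted p under 0.05, 51 (0.552%) with the higher and 164 (1.77%) with the lower value in Y726F. In the alternative fits on the 21 libraries themselves, with treatment as a block and with or without an estimated correlation within lines, 0 genes passed. Counting instead the genes in which Y726F lay outside all 6 lines in each of the 3 treatments gave 6 above (0.0649%) and 51 below (0.552%), or 57 in all (0.617%). When libraries were centred on their medians the split was 17 above and 36 below, and after quantile normalization 17 above and 31 below. The total of 57 became 117 without Y634F, 126 without Y750F, 113 without Y821F and 32 with KD added to the comparison. The same count made for each other line against its 6 peers was 47 for Y698F, 103 for Y821F, 111 for Y750F, 163 for Y634F, 207 for WT and 335 for Y643F. The root mean square difference of Y726F from the other lines' mean was 0.113 on the log2 scale, against 0.107 for Y698F and 0.156 for Y643F at the ends of the order. Line by line it was nearest to Y750F (0.132) and Y698F (0.137) and farthest from Y643F (0.198). The KD line was at a distance of 0.143.

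The gene that passed was RNA5SP298, annotated as a pseudogene of 5S ribosomal RNA on chromosome 10. It was at 9.91 TPM in UT and 9.35 TPM in E, and was listed at 0 in EA. The other lines had 3.75, 15.9 and 22.1 TPM (lowest, median, highest) in UT, 6.55, 14.2 and 27.9 TPM in E and 8.56, 15.6 and 23.3 TPM in EA. Y726F thus lay inside the other lines in UT and in E, and the difference of -1.59 (SE 0.17, adjusted p = 0.0163) rested on the EA library, without which no gene passed, and it also failed without Y643F or without Y750F. Such a transcript is not polyadenylated as a rule and has many near-identical copies, so its value in these libraries is uncertain.

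No protein-coding gene passed. The genes outside the other 6 lines in every treatment are given as a description. The 6 higher ones were PITPNM2, VWA1, POLR3D, MMAB, ACYP1 and LINC01881, a transcribed pseudogene. PITPNM2, a phosphatidylinositol transfer protein, stood farthest above. It was at 18.96, 16.6 and 15.1 TPM in UT, E and EA, where the medians of the other lines were 13.7, 13.2 and 12.1 TPM and the highest 16.4, 14.7 and 13.2 TPM. Its difference was 0.35 (SE 0.13, unadjusted p = 0.0192, adjusted p = 0.999). POLR3D, a subunit of RNA polymerase III, was at 24.5, 16.6 and 16.2 TPM against highest values of 22.5, 14.9 and 15.9 TPM, and MMAB, an enzyme of cobalamin metabolism, at 63.9, 46.5 and 41.9 TPM against 62.3, 43.0 and 41.2 TPM. These margins over the next line were small.

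The 12 lower genes with the widest margins were DAPP1, FBXO33, FUNDC1, PPP1R21, ZDHHC1, ATL2, SLTM, SLC35F5, CD274, UBE4A, KRBOX5 and ACAD10. CD274, which encodes the immune checkpoint ligand PD-L1, was at 16.9 TPM in UT, 3.70 TPM in E and 5.62 TPM in EA. The lowest, median and highest of the other lines were 18.3, 22.4 and 25.2 TPM in UT, 3.90, 6.59 and 9.41 TPM in E and 5.97, 7.18 and 8.51 TPM in EA. Its difference was the largest of the 12, at -0.43 (SE 0.15, unadjusted p = 0.0128, adjusted p = 0.999). FUNDC1, a mitophagy receptor, was nearly level in Y726F at 11.1, 11.1 and 11.4 TPM, below lowest values of 13.6, 11.9 and 12.8 TPM. PPP1R21, an endosomal protein, was at 9.13, 10.9 and 10.7 TPM against medians of 10.5, 15.5 and 14.1 TPM (difference -0.37, SE 0.11). ATL2, which shapes the endoplasmic reticulum, was at 65.1, 43.7 and 50.9 TPM below lowest values of 70.5, 47.6 and 53.3 TPM. DAPP1, an adaptor that binds phosphoinositides, had the widest margin below the next line, at least 0.13 on the log2 scale in each treatment, with 7.23, 9.31 and 9.20 TPM against lowest values of 8.002, 11.04 and 10.9 TPM.

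**Figure D2:**
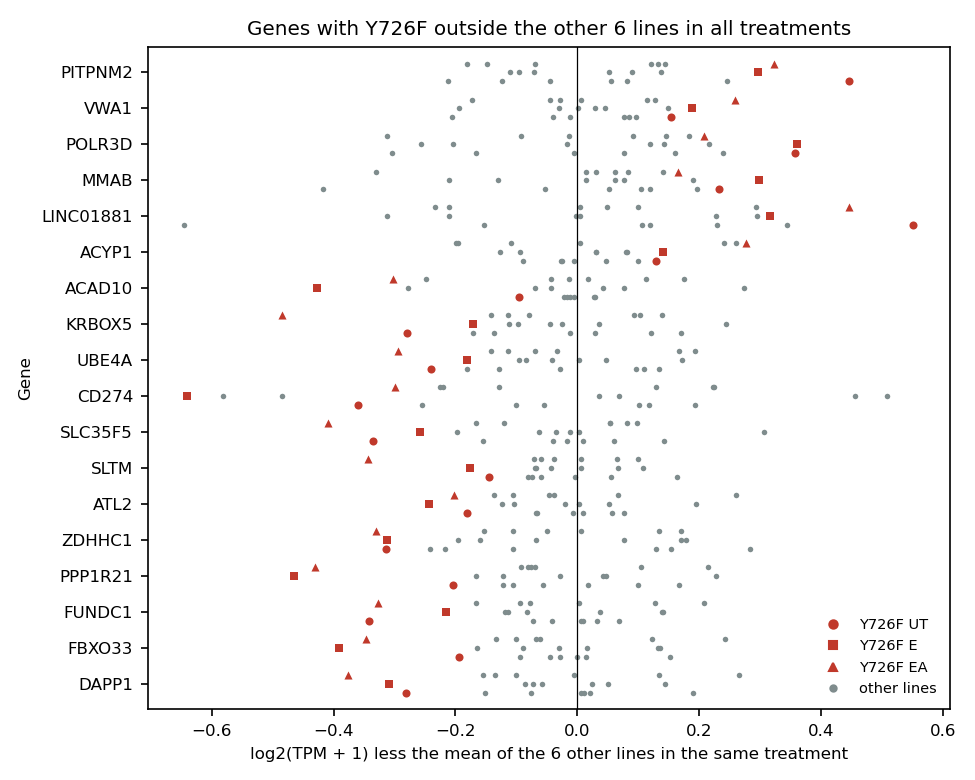
For the 18 named genes, log2(TPM + 1) in each library less the mean of the 6 other lines in the same treatment (horizontal axis), with Y726F in red by treatment and the other lines in grey. Y726F lies beyond the grey points in all 3 treatments for each gene, and the smallest of the 3 margins is at most 0.16.

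Among the gene lists examined, members outside the other lines in every treatment were few. In antigen presentation 2 of 20 tested genes were below, against 0.552% of all genes. They were CD274 and B2M, the light chain of MHC class I, at 1395, 2345 and 2108 TPM against lowest values of 1415, 2436 and 2308 TPM (difference -0.19, unadjusted p = 0.0672, adjusted p = 0.999). B2M was picked out after its values were seen. Its smallest margin below the next line was 0.02 on the log2 scale, about the size of the median line difference of all genes. The median line difference of the lists with at least 4 tested genes lay close to that of all genes, -0.02. The ends were 0.06 for the 58 cytosolic ribosomal proteins and -0.09 for the 19 NF-kB cytokines and chemokines, and in both lists no member lay outside the other lines in every treatment.

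With erlotinib most genes moved in Y726F in the direction of the other lines, and none was shown to differ from them. The log2 change from UT to E was compared with the 6 changes of the other lines, and 0 of 9241 genes (0.00%) passed in limma, with 315 (3.41%) at an unadjusted p under 0.05 and 0.999 as the smallest adjusted p. Of the 3262 genes (35.3%) that rose with erlotinib in the other 6 lines, 3120 were higher in E than in UT in Y726F, or 95.7%, where 46.5% of all genes were. Of the 3586 genes (38.8%) that fell in the other lines, 3499 (97.6%) were lower in Y726F, where 53.5% of all genes were. The mean change over the first set was 0.61 in Y726F and 0.59 to 0.69 in the other lines. Over the second set it was -0.63 in Y726F and -0.57 to -0.67 in the others. Both sets were chosen by the changes of the other 6 lines, without Y726F, which tends to enlarge the means of those lines. Across the 9241 genes the change in Y726F correlated with the mean change of the 6 lines at r = 0.947. Genes are not independent replicates, and that correlation was 0.956 for KD.

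**Figure D3:**
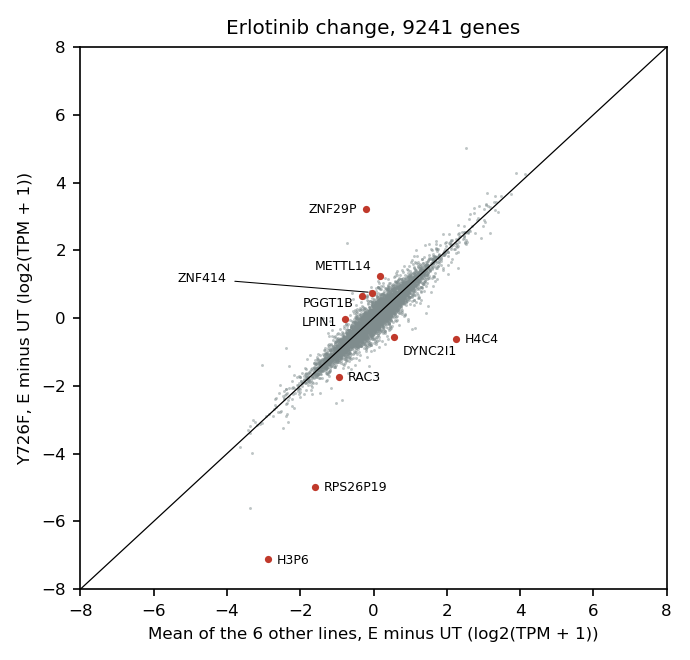
E minus UT on the log2(TPM + 1) scale in Y726F (vertical axis) against the mean of the 6 other lines (horizontal axis), 1 point a gene, with the line of equal change. Most of the 9241 genes follow the line, and the 10 labelled genes in red are those farthest outside the other lines' range.

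Genes of the ERK pathway and of proliferation had negative median changes in each of the 7 lines. EGFR inhibition is known to stop signalling through RAS and ERK, and the feedback genes that ERK switches on are a readout of it. The 11 tested ERK feedback genes had a median change of -1.92 in Y726F, within -2.17 to -1.68 in the other lines. FOSL1, a subunit of AP-1, went from 226 to 22.0 TPM, and DUSP4, a phosphatase of the MAP kinases, from 49.4 to 8.98 TPM. ETV4, an ETS factor downstream of ERK, went from 72.1 to 3.59 TPM, a change of -3.99 where the other lines had -3.57 to -2.88 (unadjusted p = 0.118). MYC went from 101 to 36.1 TPM, a change of -1.46 against -1.26 to -0.92 (unadjusted p = 0.0222, adjusted p = 0.999). The 36 DNA replication genes had a median change of -1.84 (other lines -2.12 to -1.75), and the 34 mitosis genes one of -1.29 (-1.33 to -1.19). Above and below the other lines' range lay 0 and 3 of the ERK feedback genes, 6 and 3 of the DNA replication genes, and 3 and 5 of the mitosis genes. Of all genes 9.53% lay above and 13.1% below. TTK, of the mitosis list, was below, with -1.31 against -1.29 to -0.89. MAD2L1, a spindle checkpoint protein, changed by -1.20 in Y726F and by -2.01 to -1.64 in the other lines, from 43.6 to 18.4 TPM (unadjusted p = 0.00729, adjusted p = 0.999).

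Cell junction genes were the largest list whose median change fell outside the other lines for erlotinib and remained outside after the median of all genes was taken off. These genes hold epithelial cells together through tight and adherens junctions and desmosomes. The 25 genes had a median change of 0.25 in Y726F and 0.35 to 0.58 in the other lines, or 0.29 against 0.41 to 0.60 after that subtraction. In 6 of the 25 the change lay outside the range of the other lines, 5 below and 1 above, beside 13.1%, 9.53% and, for both together, 22.6% of all genes. The members outside were thus about as frequent as among all genes. None of the 25 passed the test over all genes, and 2 had an unadjusted p under 0.05. OCLN, which encodes occludin, was at 25.8 TPM in UT and 26.4 TPM in E in Y726F, while the medians of the other lines were 21.5 and 31.3 TPM. Its change of 0.03 compared with 0.37 to 0.61 (difference -0.46, SE 0.14, unadjusted p = 0.00885, adjusted p = 0.999). In UT OCLN lay above the other lines' highest value, 24.4 TPM, and in E below their lowest, 27.2 TPM. CLDN1, which encodes claudin-1, changed by 0.18, from 13.9 to 15.9 TPM, against 0.45 to 1.03 (unadjusted p = 0.0456, adjusted p = 0.999). CDH1, which encodes E-cadherin, changed by 0.57 against 0.60 to 0.96. CGN, which encodes cingulin, was the member above the range, with 1.23 against 0.58 to 1.16.

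**Figure D4:**
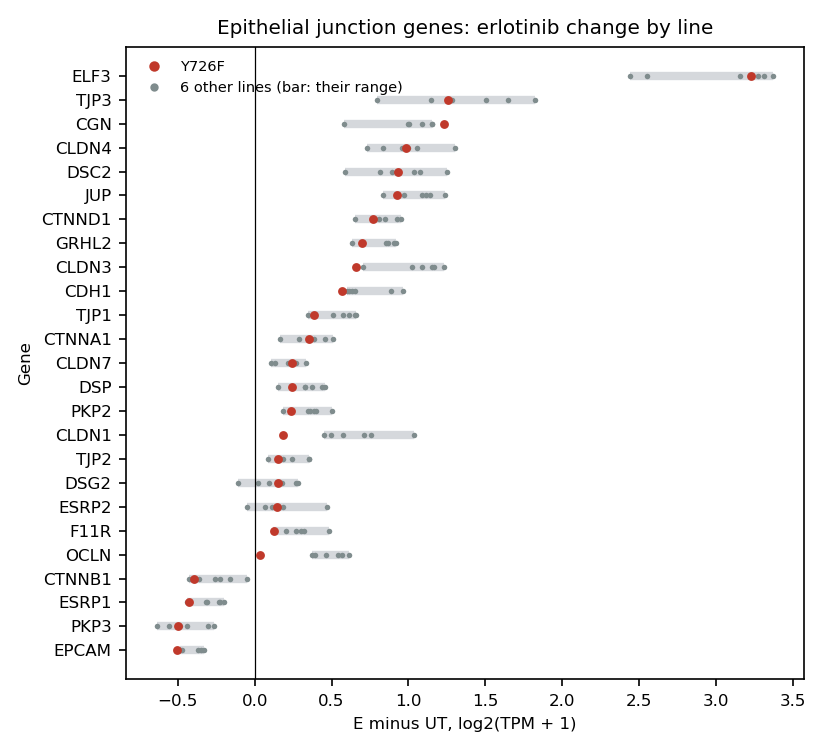
E minus UT on the log2(TPM + 1) scale for the 25 epithelial junction genes, with Y726F in red, the 6 other lines in grey and a bar over their range. CLDN1 and OCLN lie left of the bar by the widest margins, and CGN lies to its right.

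Of 35 lists with at least 4 tested genes, 28 had a Y726F erlotinib median inside the range of the other lines, 6 below and 1 above. After the median of all genes was taken off, 31 were inside, 3 below and 1 above. Those 3 were epithelial junctions, ERBB receptors and ligands, and integrins and laminins, and the list above was metallothioneins and zinc. Among 7 lines, 1 is the lowest and 1 the highest for every list, so Y726F would be outermost for some lists by chance alone. The counts of lists outside were not tested against that. Among the 4 tested ERBB genes the median was -0.01 against 0.05 to 0.14. EGFR changed by -0.67 (-0.63 to -0.36 in the other lines) and ERBB2 by 0.49 (0.54 to 0.64), both just beyond the range. The 6 metallothionein and zinc genes had a median of 0.34 against -0.27 to 0.22. MT1X, which binds zinc and copper, went from 142 to 191 TPM, a change of 0.42 against -0.41 to 0.33 (unadjusted p = 0.0406, adjusted p = 0.999). HLA-B, an MHC class I heavy chain, changed by 0.62, from 33.3 to 51.8 TPM, against 0.92 to 1.52 (unadjusted p = 0.0324, adjusted p = 0.999). The antigen presentation list to which it belongs stayed inside, with a median of 0.71 against 0.62 to 0.76. Part of HLA transcripts comes from alternate copies of the genome, which were summed here. Of the 18 tested interferon-stimulated genes 8 lay above the erlotinib range and 0 below, beside 9.53% and 13.1% of all genes. Their median stayed inside, at 0.46 against 0.23 to 0.59, and the count was not tested.

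The single genes farthest outside the erlotinib range were, upward, ZNF29P, ZNF414, PGGT1B, LPIN1 and METTL14 and, downward, H4C4, H3P6, RPS26P19, DYNC2I1 and RAC3. LPIN1, a phosphatidate phosphatase of lipid synthesis, had changes of -0.99 to -0.59 in the other lines and of -0.04 in Y726F. It was at 23.3 TPM in UT and 22.7 TPM in E, while the medians of the others went from 24.0 to 13.2 TPM and their highest value in E was 14.9 TPM (difference 0.74, SE 0.17, unadjusted p = 0.00201, adjusted p = 0.999). RAC3 went from 28.6 to 7.88 TPM, a change of -1.74 against -1.09 to -0.74. ZNF29P, a zinc finger pseudogene, was listed at 0 in UT and was at 8.31 TPM in E. The pseudogenes and histone genes in this group (ZNF29P, H3P6, RPS26P19 and H4C4) have close copies, and their values are uncertain.

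With AF154 added to erlotinib, most proliferation genes were higher in Y726F than with erlotinib alone, by medians within those of the other lines. The change from E to EA passed in 0 of 9241 genes (0.00%) in Y726F against the other lines, with 416 (4.50%) at an unadjusted p under 0.05 and 0.517 as the smallest adjusted p. It also passed in 0 genes in either direction when tested across the other 6 lines. Since the E libraries enter both the erlotinib and the AF154 changes, the 2 are not independent. Among the 36 DNA replication genes 31 were higher in EA than in E in Y726F, with a median of 0.24, against 0.12 (WT) to 0.40 (Y698F) in the other lines. The change of 5 of the 36 lay above all the other lines and that of 5 below, beside 12.9% and 16.0% of all genes, or 28.9% together. Among the 34 mitosis genes 31 were higher, with a median of 0.27, against 0.17 (WT) to 0.37 (Y643F). The change of 3 of the 34 lay above all the other lines and that of 4 below. Of all 9241 genes 4717 were higher, with a median of 0.0037. Across those genes, which are not independent replicates, the AF154 change in Y726F correlated with the mean change of the 6 lines at r = 0.126. That correlation was 0.190 for KD and 0.333 for the parental PC9 cells, which carry their own AXL. Each rests on 1 E and 1 EA library of the line named. None was computed for the 6 lines singly, and the order was not tested. The KD medians were 0.01 for DNA replication and 0.02 for mitosis. The difference between Y726F and KD was not tested, with 1 value each.

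RRM2, a subunit of ribonucleotide reductase, was at 148 TPM in UT, 25.1 TPM in E and 47.7 TPM in EA in Y726F. The other lines' medians were 143, 32.7 and 42.6 TPM, and KD had 176, 22.0 and 24.4 TPM. CDC6, which loads the replicative helicase, was at 7.36 TPM in E and 13.3 TPM in EA, a change of 0.78 against 0.34 to 0.72. MCM5, a helicase subunit, changed by 0.67 (0.04 to 0.60) and UHRF1, which maintains DNA methylation, by 0.94 (-0.26 to 0.75). These 3 lay above the other lines, with unadjusted p from 0.0856 to 0.249. In the other direction RFC2, of the clamp loader, changed by -0.19 where the other lines had 0.03 to 0.48 (unadjusted p = 0.0171). FOXM1, a transcription factor of the mitotic programme, went from 84.7 to 106 TPM (0.32, other lines -0.03 to 0.28), and CDK1, the mitotic kinase, from 58.9 to 75.9 TPM (0.36, other lines 0.23 to 0.56). SPC25 and CENPF, of the mitosis list, lay below the other lines, at 0.30 (0.40 to 0.77) and -0.06 (-0.04 to 0.37).

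**Figure D5:**
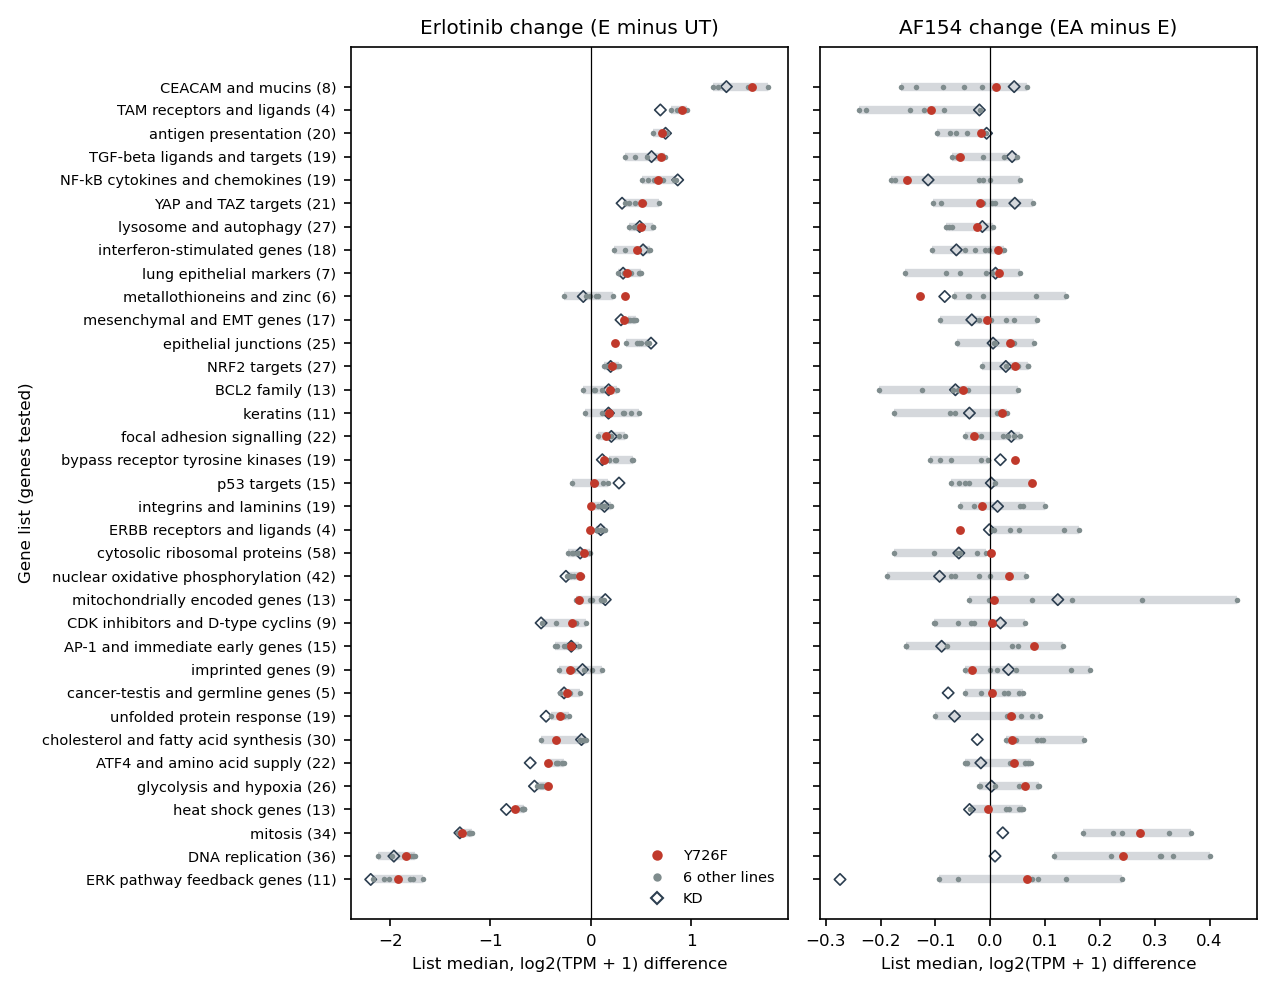
Median log2(TPM + 1) change of each gene list with at least 4 tested genes, for erlotinib (left) and AF154 (right), with Y726F in red, the 6 other lines in grey on a bar over their range, and KD as an open diamond. DNA replication and mitosis stand at -1.84 and -1.29 on the left and at 0.24 and 0.27 on the right in Y726F, where KD is at 0.01 and 0.02.

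Of the 35 lists, 30 had a Y726F AF154 median inside the range of the other lines, 3 above and 2 below. The 58 cytosolic ribosomal proteins had a median of 0.0023 against -0.18 to -0.0082, the 19 bypass receptor tyrosine kinases one of 0.05 against -0.11 to -0.0037, and the 15 p53 targets one of 0.08 at the upper edge of -0.07 to 0.08. The ERBB genes (-0.05 against 0.0015 to 0.16) and the metallothionein and zinc genes (-0.13 against -0.07 to 0.14) were below. The last 2 lists lay on the same E libraries as in the erlotinib change. The 19 NF-kB cytokines and chemokines had a median of -0.15, inside -0.18 to 0.05, with 3 of 19 higher. The 11 ERK feedback genes had one of 0.07, inside -0.09 to 0.24, and KD had -0.27. Y821F set the lower end of the range for the ribosomal protein, bypass receptor, p53 and ERK feedback lists. Its EA library had the 17.4% mitochondrial share. Its AF154 change was the largest of the 7 lines, with a root mean square of 0.337 against 0.223 (Y698F) to 0.283 (Y643F) in the rest.

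PEAK1, a pseudokinase scaffold of focal adhesions, had the smallest unadjusted p in the AF154 comparison, and was picked out for that. It was at 10.4 TPM in UT, 16.1 TPM in E and 7.07 TPM in EA. The lowest, median and highest of the other lines were 7.82, 9.89 and 13.7 TPM in UT, 8.32, 11.02 and 14.6 TPM in E, and 9.29, 11.8 and 12.8 TPM in EA. Y726F was thus the highest of the 7 lines in E and the lowest in EA. The change of -1.08 compared with -0.18 to 0.26 (difference -1.14, SE 0.16, unadjusted p = 5.6e-05, adjusted p = 0.517).

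The genes farthest outside the AF154 range were, upward, RPS26P19, ALPK1, UFD1, ZBED1 and C6orf226 and, downward, HIST2H2AA3, RNA5SP298, RNA5SP118, SSX2B and GLI2. UFD1, a cofactor of the p97 ATPase, went from 44.7 TPM in E to 76.6 TPM in EA, a change of 0.76 against -0.21 to 0.09. It was below the other lines in E, whose lowest value was 48.0 TPM, and above them in EA, whose highest was 62.2 TPM. ALPK1, a kinase that senses a bacterial sugar, went from 7.50 to 18.8 TPM, again from below the other lines (9.47 to 17.4 TPM) to above them (11.2 to 17.7 TPM). GLI2, a transcription factor of Hedgehog signalling, went from 38.6 to 11.6 TPM, from above 13.1 to 32.5 TPM to below 12.7 to 25.3 TPM. LPIN1 went to 13.9 TPM in EA, below the other lines' 14.9 to 18.9 TPM. None of these passed (adjusted p = 0.701 for UFD1, ALPK1, GLI2 and LPIN1).

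HIST2H2AA3 and SSX2B have a near-identical neighbour each, between which reads can be divided arbitrarily. HIST2H2AA3 alone went from 57.8 TPM in E to 1.8e-06 TPM in EA in Y726F. Summed with H2AC19 it was at 157 and 124 TPM, inside the 135 to 208 and 124 to 170 TPM of the other lines. SSX2 and SSX2B summed to 33.7 and 36.6 TPM, also inside the other lines' 32.4 to 34.8 and 33.0 to 41.4 TPM. PSMB8, an immunoproteasome subunit, is a like case. Its transcripts on the primary assembly alone gave 1.73 TPM in UT and 14.7 TPM in E in Y726F, where the other lines had 10.7 to 12.8 and 9.30 to 15.1 TPM. With the alternate copies of its locus included it was at 78.6 TPM in UT and 91.2 TPM in E, beside 80.2 to 85.4 and 87.3 to 97.7 TPM in the others, and its erlotinib change of 0.21 lay inside their 0.05 to 0.22.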

How the data were processed

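The authors had the reads quantified against GRCh38 and, per the labels' processing notes, with kallisto, and deposited TPM per transcript for each of the 29 libraries. The annotation release and the kallisto version are not given in the sources used here. Of 188753 transcripts, 169797 were matched to GENCODE release 29 genes of the primary assembly by identifier, 15326 on alternate copies of the genome were added to the gene of the same symbol (1752 genes), and 3630 were not used. Adding the alternate copies was decided after the data were seen. TPM was summed per gene, filtered at a mean of 10 TPM and taken as log2(TPM + 1). The main fits used limma 3.58.1 (R 4.3.3, trended eBayes, Benjamini-Hochberg, 0.05) on 1 value a line: the mean over treatments, E minus UT, and EA minus E, Y726F against 6 lines. Medians of the 39 gene lists carry no test. Named genes were AXL and its partners, up to 12 genes each way outside the other lines in every treatment, 5 each way outside the erlotinib and AF154 ranges, and list members. In practice 6 higher genes met the rule. Members and lists were chosen with earlier results of these data known. On simulated libraries of 9241 genes, shifts of 1 log2 unit were called in 91.7% of 60 genes for the line difference, 56.7% for the erlotinib change and 45% for the AF154 change. Shifts of 0.5 were called in 47.5%, 2.5% and 5% of 80 genes, with 10, 4 and 2 false calls in all. Each simulation shifted 80 genes by 0.5, 60 by 1 and 60 by 2 at once, with normally distributed noise. So many true shifts ease the Benjamini-Hochberg cut-off, so these shares run high for data in which few genes differ. One gene of the lists is not reported here.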

Additional observations from a re-analysis of the deposited data

Results flagged for a closer look

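In ACAD10, an acyl-CoA dehydrogenase gene named among the genes lower in Y726F, the line mean of WT was 3.79 on the log2(TPM + 1) scale, apart from the other 5 lines of the comparison group, which lay between 3.96 and 4.05. A line standing this far from its group was found in 1 of the 49 groups checked, where chance gives about 2.45.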

How the results depend on the processing

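The count of 1 gene for the line difference was 1 or 0 under the alternatives tried, and the 1 was RNA5SP298 except in UT alone, where it was ZNF29P (difference -3.24, adjusted p = 0.0312). It was 0 with a mean of at least 1 TPM, with at least 10 TPM in every library, with quantile normalization, with the KD line added, in both fits on 21 libraries, and with UT, E or EA left out or E alone, and it ran from 0 to 1 when a line was left out. The erlotinib count of 0 became 1 with a pseudocount of 0.1 (ZNF29P, adjusted p = 0.0301, against 0.999 as reported) and 1 with primary-assembly transcripts only, an alternative chosen after seeing the data (PSMB8, adjusted p = 0.0339). The AF154 count of 0 became 1 with a mean of at least 1 TPM (TRBJ2-4, adjusted p = 0.00815, a T cell receptor segment outside the rule for named genes). Genes outside the other lines in every treatment numbered 32 with KD added, 67 to 126 with a line left out, and 537, 316 and 222 with UT, E and EA left out, where fewer libraries have to meet the condition. Among the named genes, the CCN1 line difference turned to -0.0174 with UT left out, -0.113 in E alone and -0.0301 with EA left out, and ran from -0.0151 to 0.0260 with a line left out. The TYRO3 line difference turned to -0.0402 in UT alone, -0.0447 in E alone and -0.0425 with EA left out, and ran from -0.0061 to 0.0582 with a line left out. The EGFR line difference turned to 0.0942 in UT alone, and the PTK2 line difference and WWTR1 line difference to 0.0231 and 0.0137 in E alone. None of these had passed. TPM carries no depth, so the counting error of low genes is unknown, and the distance from the estimate to the end of its 95% interval had a median of 0.217 for the line difference, 0.393 for the erlotinib change and 0.386 for the AF154 change.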
